A study of Mus musculus with 16 samples.

Results

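The Epb4.1 family of membrane skeleton genes was described on 16 exon arrays of embryonic mouse brain and spinal cord. Its 5 listed genes were found by symbol: a probe set was a member if the platform annotation gave it the older symbol Epb4.1, Epb4.1l1, Epb4.1l2, Epb4.1l3 or Epb4.1l5 and no other. No probe set carried Epb4.1 alone, so 4 of the 5 genes were measured, by 144 of 625534 probe sets. All embryos were CD1, an outbred stock, at embryonic stage E18.5. The 4 groups were whole brain from wild type and from Nova1/2 double knockout (dKO) embryos, and spinal cord from the same 2 genotypes, with 4 arrays each and 1 array to a biological replicate. Nova1 and Nova2 encode RNA-binding proteins of neurons that control which exons are spliced into mRNA. The labels do not say which exons the knockout alleles lack.

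Proteins of this family link membrane proteins to the spectrin and actin network under the cell surface. They share a FERM domain, which binds the cytoplasmic tails of membrane proteins, and most also carry a domain that binds spectrin and actin. Epb4.1 (now Epb41) encodes the red cell founder of the family. Epb4.1l1 (Epb41l1) encodes the neuronal form, Epb4.1l2 (Epb41l2) the widely expressed form, and Epb4.1l3 (Epb41l3) the form that joins the Caspr adhesion complex beside nodes of Ranvier. Epb4.1l5 (Epb41l5) encodes a more distant relative that binds Crumbs polarity proteins and lacks the spectrin and actin binding domain. Transcripts of the family are known for extensive alternative splicing.

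Values are log2(intensity + 16), so that differences of dim probe sets are understated. The level of a gene is the median of its probe sets whose mean lies above a floor, 6.73, the median of all probe sets. The exon index subtracts the gene's level from the probe set's log2 value, array by array, so that a changed index is a change unlike that of the gene. An exon that is skipped or retained can change it, and so can another transcript end or a variant under the probes. Of the 144 member probe sets 128 lay above the floor, 35 in Epb4.1l1, 30 in Epb4.1l2, 33 in Epb4.1l3 and 30 in Epb4.1l5. Probe set positions were not used, so probe sets are named by number and no exon is assigned to them.

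The family was chosen by its gene levels and exon indices on these same arrays, beside the symbols. The members' differences are therefore given as a description with their standard errors (SE), and no p-value is printed for them. "Called" states that a feature passed limma at an adjusted p of 0.05 over all features, and it serves only to set the members beside the share of all features called.

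Brain arrays had median intensities of 72.3 to 82.9, and cord arrays of 99.5 to 116.2. Levels of Nova1 were 9.996 to 10.72 in wild type and 4.64 to 5.51 in dKO brain, and 11.52 to 11.94 and 6.28 to 6.54 in cord. Levels of Nova2 differed less and stayed above the floor in dKO, at 8.45 to 8.79 in wild type and 7.77 to 8.03 in dKO brain, and at 8.23 to 8.63 and 7.17 to 7.41 in cord. Whether the probe sets of either gene lie in the deleted part was not examined. Scores of 9 neuron markers lay between 10.83 and 11.23 on all arrays. Both brain arrays of number 3 stood apart, with telencephalon scores (3 of 6 listed genes tested) of 6.66 in wild type and 7.59 in dKO, against 9.50 to 9.91 on the other brain arrays. Skeletal muscle scores were 7.57 to 9.97 in wild type cord and 7.37 to 9.46 in dKO cord, and 4 cord arrays (wild type 1 and 4, dKO 2 and 4) are treated below as rich in muscle genes.

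The promoter windows of the members that held called probe sets are shown because both genes also had lower levels in dKO cord. The sequences are RefSeq's, in build GRCm38.p6, each 300 bases around an annotated transcript start and read 5′ to 3′. Capitals mark GC boxes, GGGCGG on either strand.
Epb41l2, chr10:25408118-25408417, plus strand: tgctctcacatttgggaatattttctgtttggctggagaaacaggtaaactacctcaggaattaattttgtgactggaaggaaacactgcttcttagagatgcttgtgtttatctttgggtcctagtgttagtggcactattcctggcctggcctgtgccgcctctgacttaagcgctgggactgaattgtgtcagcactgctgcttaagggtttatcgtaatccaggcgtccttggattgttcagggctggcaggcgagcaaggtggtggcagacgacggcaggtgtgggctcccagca
Epb41l3, first of 3 windows, chr17:69075427-69075726, plus strand: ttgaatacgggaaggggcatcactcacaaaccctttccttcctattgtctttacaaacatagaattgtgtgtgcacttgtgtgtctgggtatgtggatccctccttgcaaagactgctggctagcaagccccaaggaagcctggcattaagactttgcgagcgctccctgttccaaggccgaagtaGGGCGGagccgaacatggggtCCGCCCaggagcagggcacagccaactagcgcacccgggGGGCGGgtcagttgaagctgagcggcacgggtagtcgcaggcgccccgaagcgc
The Epb41l2 window held 0 GC boxes and 7 CpG pairs, and the Epb41l3 window 3 GC boxes and 16 CpG pairs. The other Epb41l3 windows, not shown, held 1 and 0 GC boxes and 18 and 2 CpG pairs. The Epb41l2 window was the only one listed for that gene and lies inside it, since the gene starts at position 25359782. The counts therefore depend on the window shown. A GC box was in 35.7% of 32851 mouse promoter windows of the same length, which had a median of 7 CpG pairs. Neither of the windows shown held a TATA box (TATAAA on either strand), a match found in 13.6% of all windows. Promoters were listed for 4 members, Epb41, Epb41l1, Epb41l2 and Epb41l3, with 10 windows in all, and none for Epb41l5. Which start is used in these tissues was not measured, and a match is a description of letters only.

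Epb4.1l2 was the member whose parts changed most in dKO brain, while its gene level stayed close to wild type. Its level was 8.51, 8.42, 8.65 and 8.43 on the wild type and 8.52, 8.48, 8.49 and 8.48 on the dKO brain arrays. The groups overlapped, and the means differed by -0.01 (SE 0.0893), or by -0.18 with means in place of medians and 0.17 with the floor at the 75th percentile, none of them called. Of its 30 probe sets 5 were called, all with a lower exon index in dKO brain, where 0.0818% of all 193126 probe sets were called lower. In 7 of the 30 the index of every dKO brain array lay below every wild type one, against 1.3% of all probe sets. In another 4 of the 30 the index of every dKO array lay above every wild type one, by 0.17 to 0.31 in the means and none called, against 1.32% of all probe sets. These are indices relative to the gene, and 0 of the 30 had a higher level without overlap in dKO brain. Of 12340 genes 12 had 5 or more called probe sets in brain (0.0972%).

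The probe set with the largest fall was 4959500. Its level was 9.21, 8.98, 9.40 and 9.08 in wild type brain and 6.38, 6.93, 7.13 and 6.96 in dKO brain. In cord it was 9.16, 8.98, 8.94 and 8.90 in wild type and 7.71, 8.04, 7.99 and 8.09 in dKO. The genotypes did not overlap in either tissue, and the dKO brain arrays were the lowest of all. The exon index was 0.67 ± 0.078 in wild type and -1.65 ± 0.342 in dKO brain (SD, n = 4), a difference of -2.31 (SE 0.135). The dKO brain 1 array lay below the floor and the other dKO brains just above it, so this difference may be understated. In cord it was 0.34 ± 0.083 and -0.34 ± 0.152, a difference of -0.68.

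A second probe set, 4658530, had a level of 8.45, 8.04, 8.97 and 8.44 in wild type brain and of 7.16, 7.04, 7.25 and 7.19 in dKO brain. In cord the level was 8.69, 8.59, 8.93 and 8.69 in wild type and 7.49, 7.99, 7.72 and 7.75 in dKO. Again the genotypes were apart in both tissues. The exon index differed by -1.31 in brain (SE 0.146) and by -0.63 in cord.

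The other called probe sets of Epb4.1l2 were dimmer. Probe set 5616703 had levels of 7.18 to 8.17 in wild type and 5.14 to 6.72 in dKO brain, with an index difference of -1.79 (SE 0.269). Probe set 4530575 had levels of 6.63 to 7.71 and 5.67 to 6.17, with a difference of -1.31 (SE 0.161). All dKO brain arrays lay below the floor in both, so their dKO signals are not known to exceed background, and the differences may be understated. Probe set 4917510 had levels of 7.58 to 8.06 and 6.56 to 7.01, with a difference of -0.88 (SE 0.137), and dKO brain 3 and 4 lay below the floor.

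**Figure D1:**
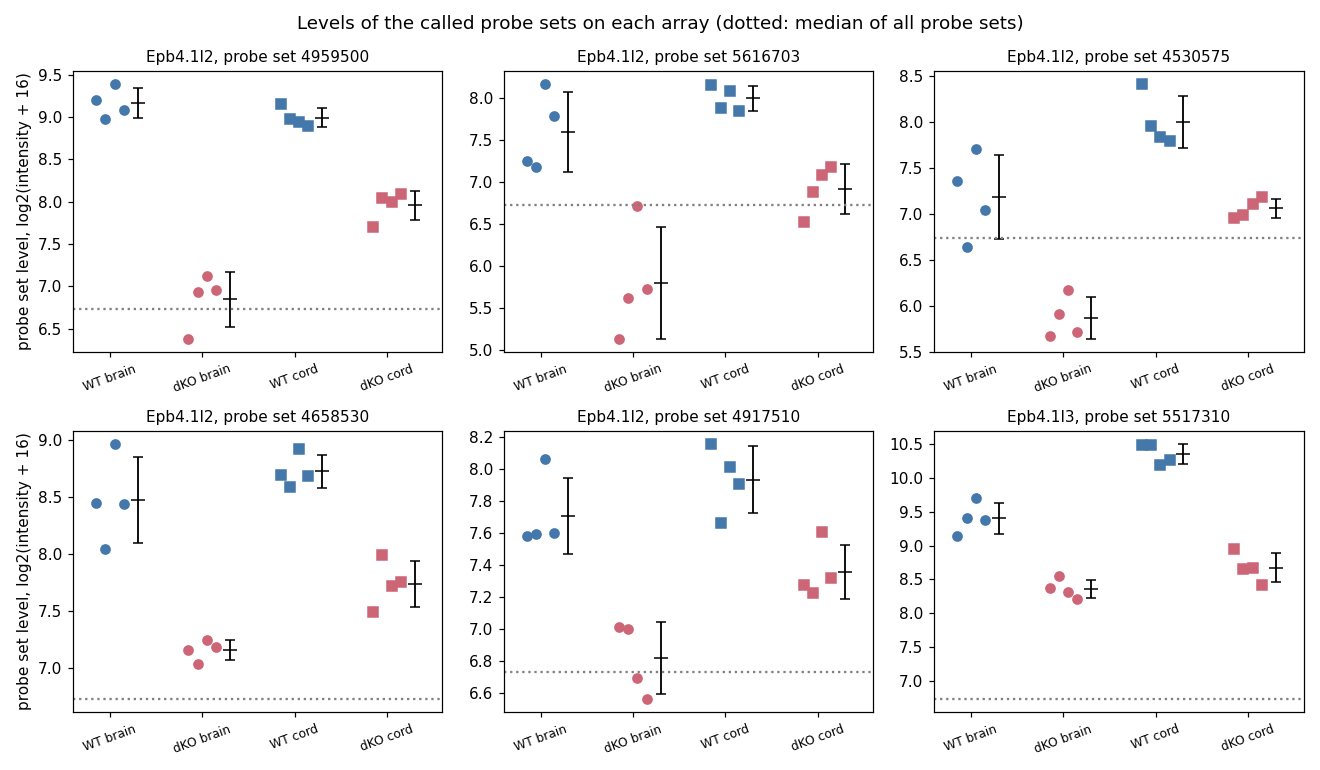
Level of each of the 6 called member probe sets on every array, as log2(intensity + 16), for wild type (blue) and dKO (red) brain (circles) and cord (squares), with the mean and SD of 4 arrays beside each group and the median of all probe sets as a dotted line. In every panel the 4 dKO arrays lie below the 4 wild type arrays of the same tissue, and in the 5 panels of Epb4.1l2 the dKO brain mean is the lowest of the 4 groups.

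A further 2 probe sets of Epb4.1l2 had brain indices that did not overlap but were not called, 5120588 at -0.97 and 5133021 at -0.70. The remaining 23 did not share in this fall. The next lowest difference in brain was that of 5458579, at -0.08, and the highest that of 4387500, at 0.54. Differences therefore fell into 7 probe sets between -2.31 and -0.70 and 23 between -0.08 and 0.54. Their SD was 0.70, against a median of 0.118 over 1510 genes with 25 to 40 probe sets, which placed Epb4.1l2 at the 99.7th percentile of those genes. It was 0.146 in Epb4.1l1, 0.144 in Epb4.1l5 and 0.248 in Epb4.1l3.

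In cord the same 7 probe sets of Epb4.1l2 had lower mean indices in dKO, from -0.72 for 5616703 to -0.22 for 4917510. Only 4959500 was called there, against 0.153% of all probe sets called lower, and 4 of the 7 had indices that did not overlap between genotypes, against 2.53% of all probe sets lower without overlap. Cord indices were also among the values by which the family was chosen, so they are no separate test of the brain result. In wild type the 7 indices differed between cord and brain by -0.33 to 0.66, and only that of 4530575 was called in that comparison.

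The change of 4959500 was smaller in cord than in brain by 1.63 (SE 0.191). It was the only 1 of 193126 probe sets called for a difference between the 2 changes (0.000518%). That call did not hold in 20 of 24 alternatives, among them the fits without any 1 of the 8 wild type arrays (1.60 to 1.67), without dKO brain 2 or 4 (1.66 and 1.67) and without dKO cord 2, 3 or 4 (1.59 to 1.62). Over all 24 alternatives the difference lay between 1.28 and 1.77, always with the smaller change in cord.

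The brain calls of Epb4.1l2 did not end in any fit without 1 brain array. With the 8 brain arrays fitted alone, 4959500 and 4658530 were still called and 5616703, 4530575 and 4917510 were not, at unchanged differences, whether or not that fit had a block on the replicate number, which pairs the brain arrays. With the block over all 16 arrays all 5 were called. The last was also not called without both brain arrays of number 3 (-0.77). In cord the call of 4959500 ended without any 1 of the 8 cord arrays, at differences from -0.60 to -0.72. It also ended with the cord arrays alone, without a floor (-0.69), with a pseudocount of 1 (-0.71) and without the 4 arrays rich in muscle genes (-0.78).

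**Figure D2:**
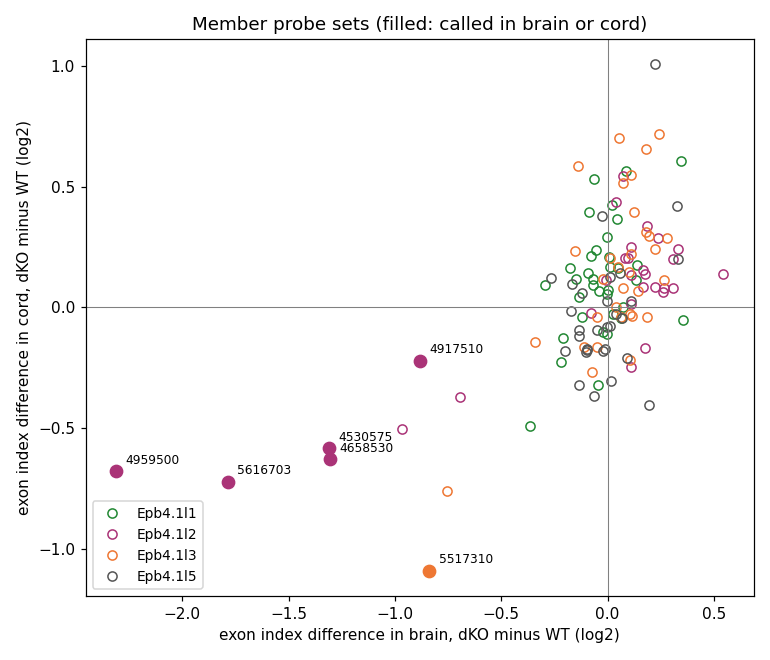
Exon index difference (dKO minus wild type, log2) of each of the 128 member probe sets in brain (horizontal) and in cord (vertical), coloured by gene, with the 6 called probe sets filled and named. Probe sets of Epb4.1l2 reach down to -2.31 in brain and -0.72 in cord, that of Epb4.1l3 lies at -0.84 and -1.09, and most others lie near 0 in brain.

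Epb4.1l3 had a lower gene level in dKO cord and a probe set that was lower still. Its level was 10.40, 9.99, 10.05 and 10.09 in wild type cord and 9.77, 9.63, 9.30 and 9.47 in dKO cord. The groups did not overlap, and the means differed by -0.59 (SE 0.115). In brain the level was 9.30, 9.30, 9.59 and 9.29 in wild type and 9.08, 9.26, 9.23 and 9.08 in dKO. These groups were also apart, as 1.83% of all genes were in this direction, but the difference of -0.21 (SE 0.115) was not called. The high wild type value is that of brain 3, the array low in telencephalon genes, and without it the difference was -0.14 (-0.16 without both arrays of number 3).

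Probe set 5517310 of Epb4.1l3 was called in both tissues. Its level was 9.14, 9.40, 9.70 and 9.38 in wild type and 8.37, 8.54, 8.31 and 8.21 in dKO brain. In cord it was 10.48, 10.48, 10.19 and 10.26 in wild type and 8.95, 8.66, 8.67 and 8.41 in dKO. Relative to the gene, the index differed by -0.84 in brain (SE 0.114) and by -1.09 in cord (SE 0.114). Over all features 184 of 193126 probe sets were called in both tissues (0.0953%). The brain call held with the brain arrays alone and with the block over all 16 arrays, and ended with both together and without both arrays of number 3 (-0.78). The cord call held in all its alternatives.

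Another probe set of Epb4.1l3, 5225515, was lower by -0.75 in brain and -0.76 in cord and was not called. Its brain indices did not overlap between genotypes and its cord indices did. The 32 probe sets above the floor other than 5517310 ranged from -0.75 to 0.28 in brain and from -0.76 to 0.72 in cord. One of the 7 below the floor, 4538210, has no exon index here. It was picked after its values were seen: its level differed by -0.90 in brain and by -1.07 in cord, without overlap in either. Of the 33 above the floor, 8 had lower levels without overlap in dKO brain and 23 in dKO cord, against 1.85% and 6.23% of all probe sets with an exon index, and none had higher levels without overlap.

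Epb4.1l1, the neuronal form, had overlapping levels in brain and lower levels in dKO cord. Its level was 9.978, 10.001, 10.030 and 10.018 in wild type and 10.011, 9.949, 10.025 and 10.042 in dKO brain, a difference of -0.0003 (SE 0.0961). In cord it was 10.28, 10.05, 10.05 and 9.77 in wild type and 9.76, 9.75, 9.67 and 9.61 in dKO. The cord groups nearly touched, since wild type cord 4 lay beside the highest dKO array, and the difference was -0.34 (SE 0.0961). Epb4.1l2 had cord levels of 8.82, 8.64, 8.51 and 8.67 in wild type and 8.27, 8.31, 8.22 and 8.41 in dKO, without overlap, and a difference of -0.36 (SE 0.0893). Epb4.1l5, the Crumbs-binding relative, had overlapping levels in all 4 groups, with differences of -0.11 in brain and -0.11 in cord (SE 0.0969 each).

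At gene level 3 of the 4 measured members were thus called lower in cord, where 4.55% of 14570 genes were called lower (5.63% either way) and 7.62% were lower without overlap. None was called in brain, where limma called 0.268% of genes, and 0 of the 4 had an unadjusted p under 0.05 there. None was called for the difference between the changes in cord and brain, where limma called 0 of 14570 genes (0%) and 1166 (8%) had an unadjusted p under 0.05, as did 3 of the 4 members. Gene levels were among the values by which the family was chosen, so these counts of members are a description and no test. That difference was -0.34 for Epb4.1l1, -0.35 for Epb4.1l2, -0.38 for Epb4.1l3 and -0.001 for Epb4.1l5. The median cord difference of the 4 members was -0.35, against -0.03 over all genes.

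**Figure D3:**
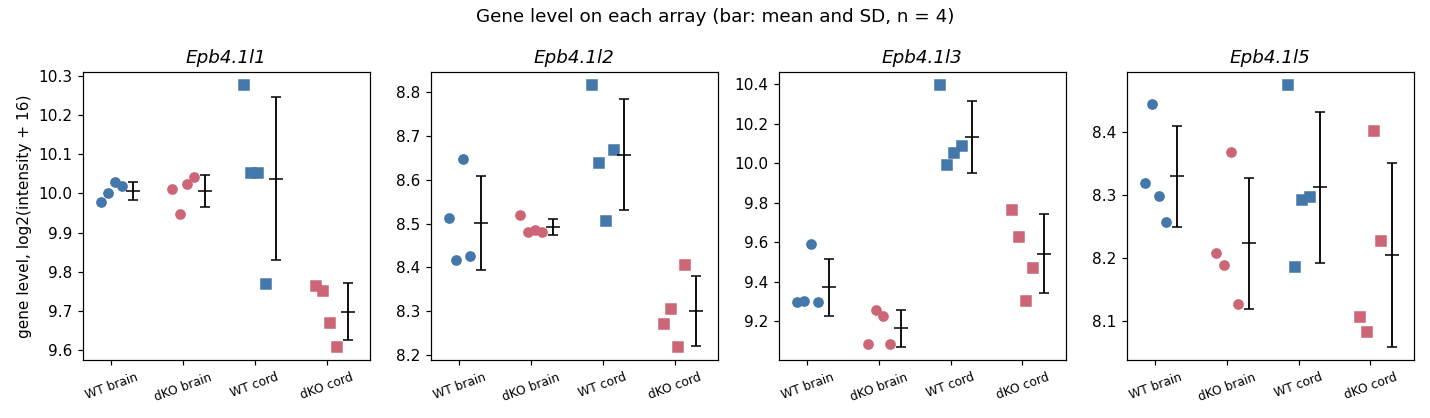
Gene level of the 4 measured members on each array, as log2(intensity + 16), with the mean and SD of 4 arrays beside each group of wild type (blue) and dKO (red) brain (circles) and cord (squares). Epb4.1l1, Epb4.1l2 and Epb4.1l3 differ in cord by -0.34, -0.36 and -0.59 in the means (dKO minus wild type), and the groups of Epb4.1l5 overlap; the vertical scales differ between panels.

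These cord calls were uneven in how they held. That of Epb4.1l3 held in every fit without 1 array and ended only without the 4 arrays rich in muscle genes (-0.49). That of Epb4.1l2 ended without wild type cord 1 (-0.30), dKO cord 2 (-0.36) or dKO cord 3 (-0.33), and when its called probe sets were left out of the gene level (-0.21). That of Epb4.1l1 ended without any 1 cord array other than wild type cord 4 (-0.26 to -0.36). Both of the last 2 calls also ended without the 4 arrays rich in muscle genes (-0.34 for Epb4.1l1 and -0.33 for Epb4.1l2), with the cord arrays alone (at unchanged differences) and with the floor at the 75th percentile (-0.31 and -0.21). That of Epb4.1l1 also ended with means in place of medians (-0.23), and that of Epb4.1l2 without a floor (-0.34). Scores of 6 erythroid genes were 8.239 to 8.490 in wild type cord and 8.070 to 8.236 in dKO cord, without overlap, and 1 of the 6 was called lower, the heme synthesis gene Alas2 (-0.96, adjusted p = 0.00161). Of 9 neuron genes 1 was called lower in cord, the synaptic vesicle gene Syp (-0.50, adjusted p = 0.00537), and none of 10 muscle genes was called. Of the erythroid genes 2, Slc4a1 and Epb4.2, are also partner genes. Scores of 6 Hox genes of the cord were 9.369 to 9.612 in wild type and 9.700 to 9.804 in dKO cord, without overlap. None of these 6 was called in cord. The part of erythroid, neuron and muscle cells in the members' lower levels was not tested, nor was that of the Hox difference. In tissue RNA, fewer cells of a type and less RNA per cell cannot be told apart.

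Epb4.1l1 and Epb4.1l5 had no called probe set in either genotype comparison of the exon index. limma gave 0 unadjusted p under 0.05 for each in brain, and 8 of 35 for Epb4.1l1 and 4 of 30 for Epb4.1l5 in cord, where 3.3% of all probe sets had one in brain and 11.8% in cord. The largest brain difference of Epb4.1l1 was that of 5291580, at -0.37, with overlapping groups, or -0.23 without dKO brain 3. In cord 4430775 differed by 0.61, or 0.39 without wild type cord 3. For Epb4.1l5 the largest were 5076286 in brain (0.33, and between 0.20, without wild type brain 1 or 2, and 0.57, without wild type brain 3) and 4692550 in cord (1.01). The last rests on wild type cord 1, where its level was 5.76 against 7.20, 8.02 and 7.86 on the other wild type and 7.97 to 8.20 on the dKO cords, and without that array the difference was 0.47.

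Between wild type tissues the order of levels differed by gene. Epb4.1l3 was higher in cord, at 10.13 ± 0.181 against 9.37 ± 0.145 in brain (SD, n = 4), by 0.76 (SE 0.115), without overlap. Its order was wild type cord, dKO cord (9.54 ± 0.2), wild type brain and dKO brain (9.16 ± 0.093), and only dKO cord and wild type brain overlapped among neighbours. Epb4.1l1 lay at 10.04 ± 0.208 in wild type cord and at 10.01 in both brain groups, all overlapping, above dKO cord at 9.70 ± 0.073. Epb4.1l2 ran from 8.66 ± 0.127 in wild type cord over 8.50 and 8.49 in wild type and dKO brain to 8.30 ± 0.079 in dKO cord, and the last 2 did not overlap. Of the 4 members 1 was called between wild type tissues, where 60.4% of all genes were called.

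Probe sets of the family also differed between wild type cord and brain, at the share seen over all probe sets. Of the 128, 28 were called (21.9%), against 22% of all probe sets. They were 18 lower and 10 higher in cord, with 9.59% and 12.4% over all probe sets. The largest difference was that of 5076286 of Epb4.1l5, whose index was -0.85 ± 0.533 in brain and 1.01 ± 0.332 in cord, higher by 1.85 (SE 0.231). Its levels were 7.06, 7.19, 8.16 and 7.53 in wild type brain and 9.82, 9.28, 8.84 and 9.34 in wild type cord, and brain 3 was the highest of the brains. Probe set 4970237 of the same gene was higher in cord by 1.23, a call that ended without the 4 cords rich in muscle genes (0.91), and wild type brain 1 and 4 lay below the floor in it.

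In Epb4.1l3 the index of 5043015 differed by -0.78 (-0.34 ± 0.078 against -1.13 ± 0.096), while that of 4507915 was higher by 0.70. The second call ended without wild type brain 1 (0.45) or 2 (0.73), or wild type cord 1 (0.59), 2 (0.71) or 4 (0.71). It also ended after quantile normalization (0.35), without a floor (0.66), with the wild type arrays alone (0.70) and without the muscle-rich cords (0.55), and wild type brain 1 lay below the floor in it. In Epb4.1l2 4589446 was higher in cord by 0.78, called in every alternative run. Probe set 4530575 was higher by 0.66, a call that ended after quantile normalization (0.42) and without the muscle-rich cords (0.64). In Epb4.1l1 the index of 5106598 differed by -0.76, a call that ended without the muscle-rich cords (-0.76), with 9 of its 35 probe sets called lower and 3 higher. Probe set 4430775 of that gene was higher by 0.82, but all 4 wild type brain levels (5.93, 6.43, 6.72 and 6.39) and that of wild type cord 3 (6.59) lay below the floor, so the size of this difference is uncertain. Its call ended after quantile normalization (0.26), without the muscle-rich cords (0.60), with the wild type arrays alone (0.82), and without wild type brain 1 (0.69) or wild type cord 2 (0.76) or 4 (0.63).

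**Figure D4:**
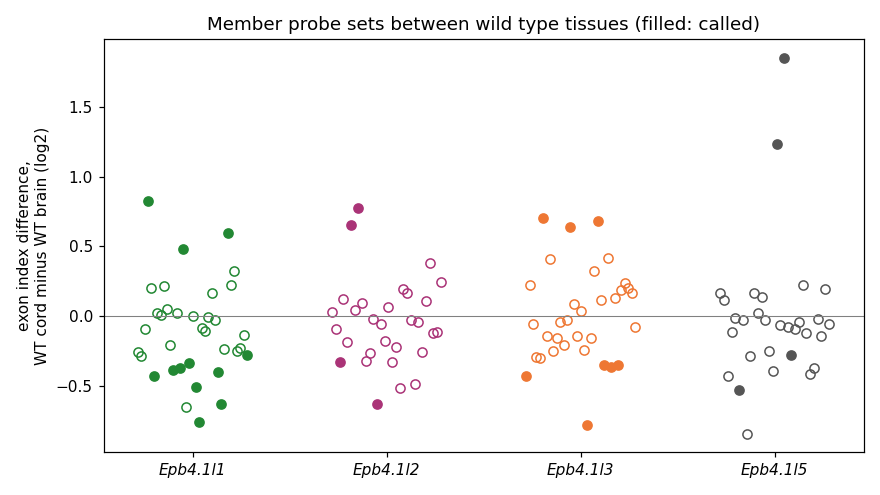
Exon index difference between wild type cord and wild type brain (log2) of the 128 member probe sets, by gene, with called probe sets filled. The highest point is that of Epb4.1l5 at 1.85, and the lowest called points are those of Epb4.1l3 at -0.78 and Epb4.1l1 at -0.76.

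Genes that work with these proteins, and other genes with a FERM domain, were read from lists of their roles. The list of other FERM genes includes Epb4.1l4b, which carries a symbol of this family but is not a listed member. Of 4 spectrin genes tested (6 listed), whose products form the network that the family binds, none was called at gene level in brain or cord, with 1 and 2 at an unadjusted p under 0.05 by limma. The lowest was the erythroid beta chain Spnb1 at -0.31 in cord (adjusted p = 0.197). Of 9 adducin, tropomodulin and other actin-binding genes, 1 was called, Add3, which encodes an adducin that caps actin ends at spectrin junctions. Its level fell by 0.62 in dKO cord (SE 0.0989, adjusted p = 0.000778). None was called in brain, with 0 at an unadjusted p under 0.05.

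Of 12 membrane proteins bound by the family (14 listed), 1 was called in cord. It was Cntnap1, which encodes Caspr, the partner of the Epb4.1l3 product, and its level fell by 0.61 (SE 0.142, adjusted p = 0.0151). Its own level was 1.34 higher in wild type cord than in wild type brain. Whether the cord calls of Cntnap1 and Add3 hold in the alternatives run for the members was not examined. In brain none of the 12 was called and 3 had an unadjusted p under 0.05 by limma. The polarity gene Crb1 was at 0.51 (adjusted p = 0.097) in brain and 0.30 in cord. The adhesion gene Cadm2 was at -0.33 in cord (adjusted p = 0.0516), and the AMPA receptor gene Gria1, whose product binds the neuronal form, at -0.34 (adjusted p = 0.0996).

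No gene was called in either tissue among 2 ankyrin genes and the red cell gene Epb4.2 (4 listed) (0 at an unadjusted p under 0.05 by limma in both), 6 MAGUK scaffold genes (0 in brain and 2 in cord) and 15 other FERM genes (0 in brain and 1 in cord). In cord the list medians were -0.17 for spectrins, -0.15 for actin-binding genes, -0.12 for ankyrins, -0.09 for membrane partners, -0.12 for MAGUK genes and 0.02 for other FERM genes, against -0.03 over all genes. Percentages called over all genes were those given above.

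**Figure D5:**
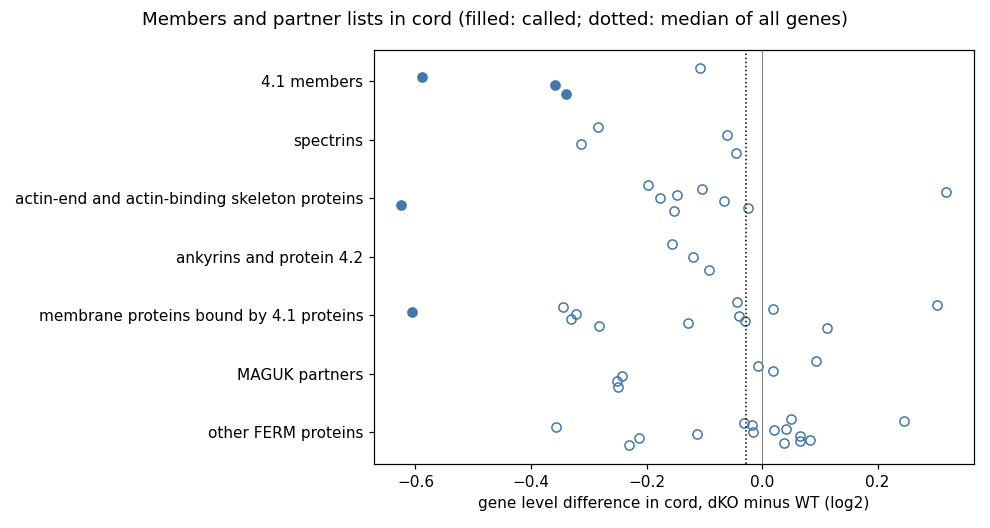
Gene level difference in cord (dKO minus wild type, log2) for the 4 measured members and 6 lists of partner or other FERM genes. Each point is 1 gene, called genes are filled, and the median of all genes is dotted. Filled points are the members Epb4.1l1, Epb4.1l2 and Epb4.1l3 and the partners Add3 at -0.62 and Cntnap1 at -0.61.

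Some partner lists also held called exon indices at a higher share than all probe sets (0.15% in brain and 0.388% in cord). Most of these counts were of 1 or 2 probe sets, so they say little about a list. The ankyrin calls lay in 2 genes in brain and 1 in cord, and the actin-binding calls in 1 gene in each tissue. The ankyrin list had 4 of 132 called in brain (3.03%) and 3 in cord (2.27%), and the actin-binding list 1 of 186 in brain (0.538%) and 4 in cord (2.15%). The MAGUK list had 1 of 142 (0.704%) and 2 (1.41%), the spectrins 1 of 193 (0.518%) and 2 (1.04%), and the membrane partners 1 of 210 (0.476%) in each tissue. The spectrin gene Spna2 had 1 called lower in each tissue, and the scaffold gene Cask 1 lower in brain and 2 in cord. The ankyrin gene Ank3 had 1 lower and 2 higher in brain and 3 higher in cord, and the tropomyosin gene Tpm3 1 lower in brain and 1 lower and 3 higher in cord. Among 382 probe sets of the other FERM genes limma called none in brain or cord, with 16 and 34 at an unadjusted p under 0.05. Over the 128 member probe sets, brain indices did not overlap in 10 that were lower and 7 that were higher in dKO. The shares over all probe sets were 1.3% and 1.32%. In cord 6 were lower and 10 higher without overlap, against 2.53% and 3.16% of all probe sets. These are indices relative to the gene, and 0 of the 128 had a higher level without overlap in dKO in either tissue. Over the members the called counts were 6 of 128 in brain (4.69%, against 0.15% of all probe sets) and 2 of 128 in cord (1.56%, against 0.388%).

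By likeness of gene level over the 16 arrays, the genes nearest to Epb4.1l3 were Tln2, which encodes a talin, and the glycolytic gene Aldoc. Their root mean square differences from it were 0.094 and 0.118 after centring, while its own spread about its mean was 0.386. Tln2 differed by -0.49 and Aldoc by -0.59 between genotypes in cord, and by 0.65 and 0.66 between wild type tissues. The nearest to Epb4.1l1 were Man2a2 (0.047) and Tcf25 (0.076), against its own spread of 0.170. For Epb4.1l2 they were Mpp2 (0.080) and Manba (0.083), against its own spread of 0.150. Those to Epb4.1l5 were Usp8 (0.076) and Slc22a15 (0.087), against its own spread of 0.113. Nearness says little for genes as flat as Epb4.1l2 and Epb4.1l5.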

How the data were processed

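Trizol-extracted RNA was biotin-labelled for Affymetrix exon arrays, per the labels' protocols. The authors deposited 1 intensity per probe set and array, on a linear scale, from PLIER in Affymetrix Power Tools with build mm8, per the submitters' processing notes. Versions, settings and any scaling between arrays: not given in the sources used here. Group and replicate number came from the sample titles. Of 625534 probe sets, 303629 had 1 gene symbol, 5892 several and 316013 are unnamed here.

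Values were taken as log2(intensity + 16). Gene levels are medians over at least 3 named probe sets above the floor (14570 genes). Exon indices were computed for genes with at least 5 (193126 probe sets of 12340 genes). limma 3.58.1 (lmFit, then eBayes; R 4.3.3) fitted group means to the 16 arrays, with two-sided Benjamini-Hochberg adjusted p at 0.05 over all features of a comparison. Tested on simulated brain data over 14570 genes, the fit found 50 of 100 shifts of 0.5, 97 of 100 shifts of 1 and 8 false calls. For 193126 exon indices it found 81 of 100 shifts of 1, all 100 of size 2 and 18 false calls. The number of arrays limits the precision. Alternatives were the pseudocount, the floor, means for medians, quantile normalization, the arrays fitted, the replicate block and leaving out arrays.

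Replicate numbers paired the brain arrays: deviations from group means correlated at 0.212 to 0.407 between wild type and dKO arrays of the same number, and each of 4 correlated best with its own number. In cord these correlations were -0.12 to -0.00296. The labels do not say where the brain pairing comes from.

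The members and the lists of partner and marker genes were chosen with earlier results of these data known. The rule for names took all members, every member probe set called in a genotype comparison (otherwise the largest difference in each), up to 2 called per gene between wild type tissues, up to 4 genes per partner list, and the 2 nearest genes to each member by root mean square difference.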

Additional observations from a re-analysis of the deposited data

Results flagged for a closer look

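Probe set 4959500 of Epb4.1l2 stands out because its genotype changes in the 2 tissues differed from each other in the fit, by 1.63 (cord minus brain). That call was lost in 20 of 24 alternatives. The rest of the 7 probe sets that fell in this gene also changed less in cord, none called. These were 5616703 (1.07), 4530575 (0.73), 4658530 (0.68), 4917510 (0.66), 5120588 (0.47) and 5133021 (0.33). In 4 of 76 groups of 4 arrays tested (5.26%), 1 array lay far from the other 3, and chance gives about 1 in 20. Wild type brain 3 had a level of Epb4.1l3 of 9.59, against 9.29 to 9.30 on the other wild type brains. In dKO brain 1 the level of Epb4.1l2 was 8.52, against 8.48 to 8.49. Wild type brain 1 had an exon index of -3.07 for probe set 5291580 of Epb4.1l1, against -2.73 to -2.67. For 5517310 of Epb4.1l3 it had -0.16, against 0.08 to 0.11, with the dKO brain arrays lower still.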

How the results depend on the processing

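No called difference of a member gene or named probe set changed its sign in any alternative run; of these values under alternatives, 638 kept their side of the threshold, 80 lost a call, 2 gained one and 1 moved without a call. The counts of calls over all features moved more. Gene calls in brain were 24 with brain arrays alone, against 39. In cord, against 820, they were 1620 after quantile normalization, 100 without the 4 muscle-rich arrays and 420 to 1231 without 1 array. Of the genes called in the cord genotype comparison, 19.1% were higher in dKO as deposited and 27.8% after quantile normalization. Of those called between wild type tissues, 34.1% and 24.3% were higher in cord. For the difference of changes, against 0, gene calls were 34 after quantile normalization, 11 with the floor at the 75th percentile, 11 with the replicate block over all groups, 10 without both brain arrays of number 3, 1 each with means, no floor and without the muscle-rich cords, and 0 to 18 without 1 array. Exon index calls in brain, against 290, were 192 with brain arrays alone, 187 without both arrays of number 3 and 78 with the replicate block on the brain arrays (250 with it over all groups). In cord, against 750, they were 1755 after quantile normalization, 489 without a floor, 200 with cord arrays alone, 111 without the muscle-rich arrays and 332 to 889 without 1 array. For the difference of changes, against 1, they were 0 with means, no floor, a pseudocount of 1, quantile normalization, the replicate block and without both arrays of number 3, 2 without the muscle-rich cords and 0 to 3 without 1 array. Between wild type tissues, against 42539, they were 25444 with those arrays alone, 25837 with the higher floor and 27048 without the muscle-rich cords. The causes were not tested. Fewer arrays enter where arrays are left out. Epb4.1l1 was called higher in wild type cord only after quantile normalization (0.25), and 4658530 of Epb4.1l2 was called lower in cord only there (-0.74). The gene level without called probe sets and the block on brain arrays alone were chosen after seeing the data; the block changed no member gene call in brain. Signals below the floor limit what can be said of the dim probe sets of Epb4.1l2 in dKO brain.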
